A study of Mus musculus with 2 samples.

Results

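The Notch pathway genes described here are 10 of the 32285 genes measured by single-nucleus RNA sequencing (snRNA-seq) of developing mouse kidney. They were chosen by gene symbol, and each symbol matched 1 gene at both ages. Notch1, Notch2 and Notch3 encode receptors, Jag1, Dll1 and Dll4 encode ligands, Lfng encodes an enzyme that modifies the receptors, and Hes1, Hey1 and Heyl encode transcriptional repressors that are known targets of the pathway. Nuclei of pooled male and female kidneys were sequenced in 1 library from late embryos (E18.5) and 1 library from postnatal day 3 (P3), which leaves no replicates and no test between the ages. The E18.5 mice carried Mycf/f and Mycnf/f alleles with no Cre on a mixed background, and the P3 mice were wild type on C57BL/6J by the labels, although the methods of the study name a mixed background for both ages. Age, genotype, strain and library therefore cannot be told apart.

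Notch signaling acts between touching cells. A ligand of the Jagged or Delta-like family on the sending cell pulls on the receptor of its neighbor, the receptor is cut in the membrane, and the freed intracellular domain joins the DNA-binding protein RBPJ and its Mastermind partners to switch on genes of the Hes and Hey families. In the developing kidney the pathway is known for nephron segmentation, and in vessels it is known for arterial identity and for the coat of smooth muscle cells and pericytes, which are collectively called mural cells.

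In the annotation of the mouse genome build GRCm38 the 10 genes differ widely in length, from Hes1 with 3.41 kb and Hey1 with 3.90 kb to Notch1 with 58.8 kb and Notch2 with 137 kb. Lfng spans 8.23 kb, Dll1 9.52 kb, Dll4 10.2 kb, Heyl 16.3 kb, Jag1 35.2 kb and Notch3 46.0 kb. Nuclear RNA holds unspliced transcripts, and length is given because it moved with the comparison of the ages reported at the end. Notch1 and Notch2 overlap other annotated genes on the same strand (Mir6996 for Notch1, Gm42819 and Gm42820 for Notch2). Notch1, Notch3, Dll1 and Dll4 overlap genes on the opposite strand. The effect of these overlaps on the counts was not tested. RefSeq promoter windows of 300 bases, from 250 bases before to 50 bases after an annotated start, were found for 7 of the 10 members in build GRCm38.p6. No window was found for the targets Hes1, Hey1 and Heyl, so their promoters were not searched. The core of the RBPJ recognition motif, TGGGAA read on either strand, occurred in 1 of these 7 promoters, that of Lfng, at 135 and 108 bases before the start. The same letters occur in 25.6% of all 32851 windows of this length. The E-box CACGTG, a class of site to which Hes and Hey proteins can bind, occurs in 7.15% of all windows. Its single match among the 7 members with a window overlaps the second RBPJ match of Lfng. The Lfng window is shown beside those of Notch3, Jag1 and Dll4, whose levels by class carry most of the results. All are written 5′ to 3′ on the strand of the gene, and capitals mark the matches to TGGGAA or its reverse complement TTCCCA. The windows lie at chr5:140607091-140607390 on the plus strand for Lfng, chr17:32166841-32167140 on the minus strand for Notch3, chr2:137116471-137116770 on the minus strand for Jag1 and chr2:119325534-119325833 on the plus strand for Dll4. A match of letters is a description of the sequence and not evidence of binding.
Lfng: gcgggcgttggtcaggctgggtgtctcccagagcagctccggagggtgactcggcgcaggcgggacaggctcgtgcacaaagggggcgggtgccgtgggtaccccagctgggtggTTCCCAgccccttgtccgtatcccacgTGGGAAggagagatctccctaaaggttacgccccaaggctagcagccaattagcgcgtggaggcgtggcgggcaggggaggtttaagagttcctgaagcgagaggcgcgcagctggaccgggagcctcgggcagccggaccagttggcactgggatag
Notch3: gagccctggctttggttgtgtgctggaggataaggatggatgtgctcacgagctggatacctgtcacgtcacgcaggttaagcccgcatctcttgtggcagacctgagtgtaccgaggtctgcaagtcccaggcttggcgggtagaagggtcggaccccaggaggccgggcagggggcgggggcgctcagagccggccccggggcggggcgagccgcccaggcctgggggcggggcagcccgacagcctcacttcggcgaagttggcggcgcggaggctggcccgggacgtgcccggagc
Jag1: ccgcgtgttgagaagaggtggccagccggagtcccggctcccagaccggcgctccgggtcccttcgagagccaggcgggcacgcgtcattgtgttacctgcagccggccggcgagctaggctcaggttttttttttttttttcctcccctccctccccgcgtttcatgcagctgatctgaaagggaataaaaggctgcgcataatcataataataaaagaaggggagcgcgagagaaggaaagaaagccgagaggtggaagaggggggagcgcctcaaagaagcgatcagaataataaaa
Dll4: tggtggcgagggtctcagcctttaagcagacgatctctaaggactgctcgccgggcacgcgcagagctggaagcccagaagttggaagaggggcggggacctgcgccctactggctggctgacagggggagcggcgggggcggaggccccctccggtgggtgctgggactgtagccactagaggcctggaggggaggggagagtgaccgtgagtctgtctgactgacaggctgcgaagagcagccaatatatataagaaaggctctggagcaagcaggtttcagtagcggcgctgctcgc

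After quality limits, 21270 nuclei remained at E18.5 and 11765 at P3, with medians of 3132.5 and 4534 unique molecular identifiers (UMIs) per nucleus. Nuclei were clustered at each age separately without the Notch genes, and clusters were named only from marker genes outside the pathway, with 3 to 9 markers raised in the 18 named clusters at E18.5 and 4 to 9 in the 24 at P3. In these counts 1 interstitium-like cluster at each age (573 and 198 nuclei) rests on both stromal lists together, with 2 interstitium markers, Pdgfra and Col6a3, and 4 mural markers raised and none of either list among its 10 leading genes. Without these clusters every member kept its highest class at both ages. These names are rebuilt from the markers, so each class is called by its name with the ending "-like". Of the nuclei, 29.1% at E18.5 and 31.7% at P3 stayed in unnamed clusters, where 43.9% and 43.7% were called doublets, against 16.4% and 16.8% of all nuclei. There were 14 named classes at each age and 13 at both, since proximal precursor-like nuclei were named at E18.5 only and committing-like nuclei, with Wnt4, Fgf8, Lhx1, Pax8 and Ccnd1 as marker list, at P3 only. The libraries shared 69 barcodes, which is 0.319% of those at E18.5 and 0.565% of those at P3. Levels are given as CPM, the UMIs of a gene for each 1000000 UMIs of all genes in a class, with exact 95% Poisson intervals in parentheses. All intervals cover counting error only and say nothing of differences between mice. In a sum over nuclei, more nuclei with a transcript and more transcripts per nucleus cannot be told apart, and shares of nuclei are therefore given for the main cases.

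Among the receptors, Notch1 was highest in endothelium-like nuclei, at 131 CPM (119 to 143, 438 UMIs) at E18.5 and 134 CPM (121 to 148, 404 UMIs) at P3. At E18.5 the mural-like class at 102 CPM (79.9 to 129) and the urothelium-like class at 94.5 CPM (63.8 to 135) were not separated from it by counting error, whereas the other 11 classes were lower, between 10.6 CPM in intercalated cell-like and 68.9 CPM in proximal precursor-like nuclei. At P3 committing-like nuclei came next with 104 CPM (92.2 to 117), and the ratio of endothelium-like to committing-like nuclei was 1.29 (1.10 to 1.5). At P3 the lowest value, 16.9 CPM, was that of the loop of Henle-like class. Mural-like nuclei at P3 held 88.1 CPM (44.0 to 158, 11 UMIs), an interval that holds the endothelium-like level. The highest class was thus the same at both ages. Mural-like nuclei were near it at both ages, urothelium-like nuclei at E18.5 and committing-like nuclei at P3.

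Notch2, the receptor best known for its role in forming the proximal nephron, was led by another class. It was highest in nephron progenitor-like nuclei, with 219 CPM (210.0 to 228, 2205 UMIs) at E18.5 and 452 CPM (427 to 477, 1276 UMIs) at P3. Endothelium-like nuclei were lowest at both ages, with 39.7 CPM (33.2 to 47.0) and 48.4 CPM (40.8 to 56.9), so the top class exceeded them 5.52 times (4.63 to 6.63) at E18.5 and 9.35 times (7.87 to 11.2) at P3. Leukocyte-like nuclei were close to the top with 204 CPM (161 to 255) at E18.5, where their ratio to nephron progenitor-like nuclei was not separated from 1, and came after the nephrogenic classes with 276 CPM (234 to 323) at P3. Committing-like nuclei at P3 reached 407 CPM (383 to 431), and podocyte-like nuclei 157 CPM (141 to 175) at E18.5 and 230.5 CPM (203 to 260.2) at P3. The P3 podocyte-like class joined a cluster of 149 nuclei at 158 CPM and a cluster of 82 nuclei at 345 CPM. After each nucleus was thinned to 1000 UMIs, 19.0% of nephron progenitor-like nuclei at E18.5 (17.5% to 20.4%, 2939 nuclei) and 33.5% at P3 (29.6% to 37.6%, 555 nuclei) held a Notch2 UMI, against 3.68% and 4.03% of endothelium-like nuclei. Without thinning, these shares were 46.0% and 77.8% against 11.1% and 15.6%, at median depths of 3166.5 and 4583 UMIs for nephron progenitor-like and 2821.5 and 3431 UMIs for endothelium-like nuclei.

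Notch3, the receptor of vascular smooth muscle cells and pericytes, had the sharpest pattern of the receptors. Mural-like nuclei held 510.1 CPM (458 to 566, 354 UMIs in 216 nuclei) at E18.5 and 1153 CPM (973 to 1358, 144 UMIs in 32 nuclei) at P3. The next class was urothelium-like at both ages, with 176 CPM (133 to 229) and 110.0 CPM (86.1 to 139), so the mural-like class was 2.89 times (2.18 to 3.90) and 10.5 times (7.85 to 14.1) as high. Interstitium-like, ureteric epithelium-like and distal precursor-like nuclei formed a middle group at 88.9 to 97.9 CPM at E18.5 and 100 to 104 CPM at P3, within which no neighbor was separated from the next. Notch3 was lowest in leukocyte-like nuclei at E18.5, with 8.05 CPM from 3 UMIs, and in proximal tubule-like nuclei at P3, with 8.43 CPM (6.63 to 10.6). At 1000 UMIs per nucleus, 36.9% of mural-like nuclei (30.4% to 43.8%, 214 nuclei) held a Notch3 UMI at E18.5 and 53.1% (34.7% to 70.9%, 32 nuclei) at P3, against 0.753% and 0.861% of proximal tubule-like nuclei. The unthinned shares were 69.4% and 87.5% in mural-like nuclei (median depths 3020 and 3314.5 UMIs) and 4.71% and 5.47% in proximal tubule-like nuclei (4158 and 6153 UMIs), so the deeper class had the lower share.

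**Figure D1:**
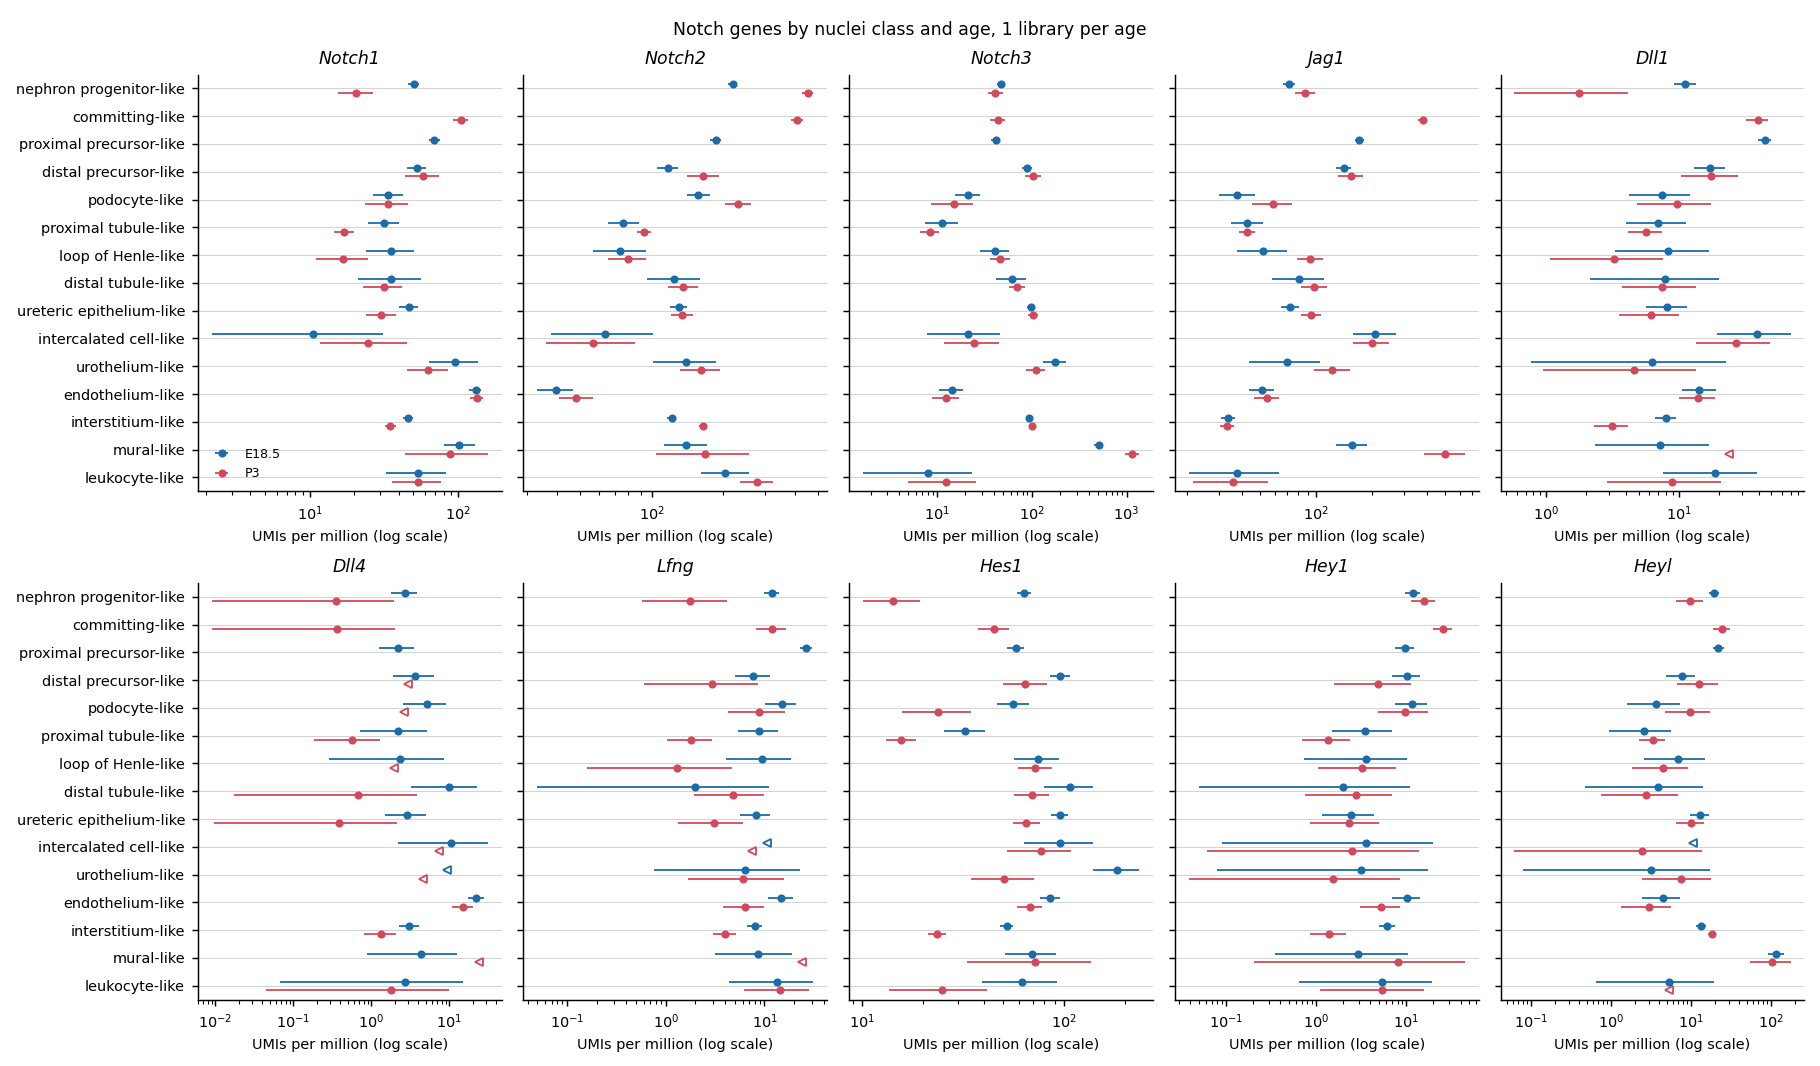
Level of each of the 10 Notch genes in CPM (log scale, a separate range for each gene) by nuclei class at E18.5 (blue) and P3 (red), with bars for exact 95% Poisson intervals and open triangles at the level that 3 UMIs would give where a class had 0. Notch3 and Heyl stand out in mural-like nuclei and Dll4 in endothelium-like nuclei. Notch2 is highest in nephron progenitor-like nuclei, and neither Notch2 nor Hes1 has a class at least 2 times the next at either age.

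Among the ligands, Jag1, the Jagged ligand known from tubule patterning and from arteries, was spread over classes of different lineages. At E18.5 the highest level was in intercalated cell-like nuclei with 209 CPM (159 to 269.7, 59 UMIs), followed by proximal precursor-like nuclei with 171 CPM (162 to 181) and mural-like nuclei with 156 CPM (128 to 188), and these 3 were not separated by counting error. Distal precursor-like nuclei followed with 141 CPM (128 to 154), and the step from there to the distal tubule-like class at 81.0 CPM was the only separated neighbor pair in the order. At P3 mural-like nuclei were highest of the named classes with 497 CPM (381 to 637, 62 UMIs), committing-like nuclei had 376 CPM (354 to 399.8, 1043 UMIs), and intercalated cell-like nuclei had 200.1 CPM (159 to 249, 81 UMIs). An unnamed P3 cluster of 95 nuclei, led by Sgcz, Ranbp3l and Prox1, held 479 CPM from 224 UMIs and lies outside these classes. Its best list was that of the loop of Henle, of which 2 of 8 markers were raised. Interstitium-like nuclei were lowest at both ages, with 33.3 CPM (30.5 to 36.3) and 33.2 CPM (30.3 to 36.2). Intercalated cell-like nuclei, the acid and base secreting cells of the collecting duct, thus kept nearly the same Jag1 level at both ages, and thinned to 1000 UMIs 15.4% of 78 and 16.9% of 71 of them held a UMI, against 3.61% and 3.27% of interstitium-like nuclei. The unthinned shares were 48.7% and 57.7% against 9.76% and 12.8%, at median depths of 3404.5 and 4976 UMIs against 2994.5 and 4116.

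Dll1, a Delta-like ligand of early nephrons, was highest in proximal precursor-like nuclei at E18.5 with 44.5 CPM (39.9 to 49.4, 347 UMIs) and in committing-like nuclei at P3 with 39.3 CPM (32.3 to 47.4, 109 UMIs). The proximal precursor-like class held more called doublets than the other named classes at E18.5, at 15.2% of its nuclei. Intercalated cell-like nuclei ranked second at both ages, with 39.0 CPM (19.5 to 69.8) and 27.2 CPM (13.6 to 48.6), each from 11 UMIs, and were not separated from the top class at either age. No neighboring pair of classes was separated for Dll1 at either age, although the top class exceeded 12 of the other 13 at each.

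Dll4, the Delta-like ligand of endothelium, was highest in endothelium-like nuclei, with 22.1 CPM (17.3 to 27.7, 74 UMIs) at E18.5 and 14.9 CPM (10.9 to 19.9, 45 UMIs) at P3. At P3 the next class held 1.78 CPM from 1 UMI, and 6 classes held 0 UMIs, which allows up to 1.95 CPM in the loop of Henle-like class and up to 24.0 CPM in the 32 mural-like nuclei. At E18.5 the ratio to the next class, intercalated cell-like with 3 UMIs, was 2.08 with an interval from 0.683 to 10.3, so the order at the top was not resolved at this depth. At 1000 UMIs per nucleus 2.39% (1.57% to 3.48%) and 1.64% (0.875% to 2.78%) of endothelium-like nuclei held a Dll4 UMI, against 0 of 531 and 0 of 1278 proximal tubule-like nuclei, which allow shares of up to 0.565% and 0.235%. Unthinned, the shares were 6.19% and 4.65% in endothelium-like and 0.942% and 0.391% in proximal tubule-like nuclei.

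Lfng, the Lunatic fringe enzyme that adds sugars to the receptors and so shifts which ligands they answer to, was highest in proximal precursor-like nuclei at E18.5, with 26.2 CPM (22.7 to 30.0, 204 UMIs). Podocyte-like nuclei followed with 14.9 CPM (10.2 to 21.0) and endothelium-like nuclei with 14.6 CPM (10.8 to 19.3), and the step below the top class was 1.76 (1.21 to 2.64). At P3 the gene was sparse. Leukocyte-like nuclei held 14.2 CPM from 8 UMIs and committing-like nuclei 11.9 CPM (8.19 to 16.7, 33 UMIs), and no neighboring classes were separated.

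Among the targets, Hes1 was detected in every class. At E18.5 urothelium-like nuclei held 183 CPM (139 to 236, 58 UMIs), and the other 13 classes lay between 32.5 CPM in proximal tubule-like and 107 CPM in distal tubule-like nuclei. At P3 the 8 highest classes, from intercalated cell-like at 76.6 CPM (52.0 to 109) to urothelium-like at 50.4 CPM, were not separated from the highest by counting error. Nephron progenitor-like nuclei were lowest at P3 with 14.2 CPM (10.1 to 19.3, 40 UMIs), although they had held 63.5 CPM at E18.5. The highest class of Hes1 thus differed between the ages, whereas that of each receptor was the same.

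Hey1 was sparse at E18.5, with 11.8 CPM (9.79 to 14.1) in nephron progenitor-like nuclei and 11.6 CPM (7.51 to 17.1) in podocyte-like nuclei, and the 5 highest classes were not separated from the highest. At P3 committing-like nuclei led with 25.6 CPM (20 to 32.3, 71 UMIs), which was 1.64 times (1.11 to 2.45) the level in nephron progenitor-like nuclei. Heyl, the target known from smooth muscle, was highest in mural-like nuclei, with 118 CPM (94 to 147, 82 UMIs) at E18.5 and 104 CPM (55.4 to 178, 13 UMIs) at P3. Proximal precursor-like nuclei came next at E18.5 with 22.3 CPM (19.1 to 25.9), a ratio of 5.29 (4.02 to 6.92), and committing-like nuclei at P3 with 24.5 CPM (19.0 to 31.1), a ratio of 4.25 (2.15 to 7.75). At 1000 UMIs 10.3% of mural-like nuclei at E18.5 and 12.5% at P3 held a Heyl UMI, against 0.377% and 0.156% of proximal tubule-like nuclei, and unthinned 24.1% and 34.4% against 1.13% and 2.19%. The share of nuclei therefore followed the level for Notch3 and Heyl in the mural-like class.

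A gene was said to have a leading class when its highest class was at least 2 times the next. Of the 10 members, 3 had a leading class at E18.5 (Notch3, Dll4 and Heyl), against 19.5% of the 11549 genes with at least 20 UMIs in their highest class. At P3, 2 of the 8 members with enough UMIs did (Notch3 and Dll4), against 23.5% of 12265 genes. These shares are near the background, so a leading class is not particular to the Notch genes. With 20 neighbors in the graph or with quality limits on the linear scale, 1 member had a leading class at E18.5 in place of 3.

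The other genes of the pathway were taken from a list of 47, of which 32 at E18.5 and 28 at P3 had enough UMIs. Of these, 6 had a leading class at each age, against 19.5% of all genes at E18.5 and 23.5% at P3. Led by endothelium-like nuclei were Notch4, the endothelial receptor, with 68.0 CPM at E18.5 and 67.2 CPM at P3, and Mfng, the Manic fringe enzyme, with 32.5 and 33.5 CPM. The Mfng ratio to the next class at P3, mural-like with 2 UMIs, was 2.09 (0.563 to 17.5) and so not separated from 1. Rbpj, the DNA-binding partner of all Notch receptors, was detected throughout but was by far highest in leukocyte-like nuclei, with 1092 CPM at E18.5 and 1374 CPM at P3, which was 8.38 times (7.48 to 9.38) and 7.76 times (6.93 to 8.70) the nephron progenitor-like level. The ubiquitin ligase gene Dtx3l also led in leukocyte-like nuclei at both ages, with 56.3 and 42.7 CPM. Hey2, a relative of Heyl, led in mural-like nuclei at E18.5 with 64.8 CPM (47.3 to 86.8) and had 104 CPM there from 13 UMIs at P3. The ligand-like gene Dlk1 had a leading class at P3 only, in interstitium-like nuclei (8.09 against 2.70 CPM), as did Dtx4 in urothelium-like nuclei (36.7 against 17.8 CPM). The Dtx4 ratio was 2.06 (0.950 to 4.83), an interval that holds 1. Jag2, a Jagged ligand, was highest in urothelium-like nuclei with 53.6 CPM from 17 UMIs at E18.5 and 45.9 CPM at P3, followed by endothelium-like nuclei with 22.7 and 23.5 CPM. Nrarp, a feedback inhibitor, reached 17.3 CPM in mural-like nuclei at E18.5 and 19.9 CPM in urothelium-like nuclei at P3. Hes5, a target used in early nephrons, was highest in proximal precursor-like nuclei at E18.5 with 13.1 CPM (10.7 to 15.9, 102 UMIs), and its level over the whole library was 6.02 CPM at E18.5 and 0.642 CPM at P3.

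The pattern of each member over the 13 classes at both ages, 26 points in all, was compared with 13066 other genes by Pearson correlation of log levels, as a description across classes that share libraries and depth. Proximal precursor-like and committing-like nuclei are not among these classes. They were the highest classes of Dll1 at E18.5 and P3, of Lfng at E18.5 and of Hey1 at P3, so these patterns leave out those sites. The closest genes were Kcnab1 (r = 0.925), A330015K06Rik (0.907) and Prdm6 (0.905) for Heyl, and Ano1 (0.887), Hpse2 (0.866) and Akap6 (0.848) for Notch3. For Dll4 they were Kank3 (0.885), Ifi44 (0.881) and Ecscr (0.874), and for Lfng Dnajc8 (0.889), Ufc1 (0.808) and Tbcb (0.801). The closest genes were Gm10353 (0.809), Fhod1 (0.798) and Rgs3 (0.797) for Notch1, Ust (0.789), Rest (0.765) and Disp1 (0.734) for Notch2, and Stac (0.779), 1700120C14Rik (0.766) and B3galnt2 (0.762) for Jag1. They were Atp6ap2 (0.810), Atg4b (0.747) and Plcg2 (0.741) for Dll1, Gm15886 (0.742), Epcam (0.728) and Mfsd4a (0.720) for Hes1, and Vat1l (0.804), Crispld1 (0.793) and Wasf1 (0.783) for Hey1. Among the members themselves, Notch3 and Heyl were the most alike pair (r = 0.801), followed by Notch3 and Jag1 (0.612).

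The nephron lineage was then resolved further by clustering the nephron progenitor-like nuclei at E18.5, and the nephron progenitor-like and committing-like nuclei at P3, again without the Notch genes. Cluster 1 had Lhx1 and Alk among its 10 leading genes at both ages (180 nuclei at E18.5, 186 at P3), with 5 of 5 committing markers raised at E18.5 and 3 at P3. Cluster 2 had Ndnf and Rerg among its leading genes (397 and 207 nuclei), with 3 committing markers raised at E18.5 and 0 at P3, and cluster 3 had Bmper and Mkx (1124 and 456 nuclei), with 0 raised at either age. The clusters with the same number shared 6, 2 and 5 of their 10 leading genes between the ages, so cluster 2 is the loosest match, and all are compared by number. Dividing nuclei and other clusters were left out of this comparison. At E18.5 these included 899 nuclei with the progenitor marker Crym raised and no matched cluster at P3. They held 36.9 CPM Notch1, 140.5 CPM Notch2, 25.2 CPM Jag1, 8.16 CPM Dll1 and 73.1 CPM Hes1. At P3, 77 nuclei with distal precursor markers raised held 41.5 CPM Notch1, 269.7 CPM Jag1 and 33.2 CPM Dll1. Notch1 was graded from cluster 3 over cluster 2 to cluster 1, with 30.4, 97.9 and 153 CPM at E18.5 and 20.2, 101 and 119 CPM at P3. Jag1 had the same order, with 54.8, 133 and 305 CPM at E18.5 and 80.7, 221 and 519 CPM at P3. The ratio of cluster 1 to cluster 3 was 5.05 (3.84 to 6.63) and 5.90 (4.18 to 8.48) for Notch1, and 5.57 (4.58 to 6.78) and 6.44 (5.44 to 7.66) for Jag1.

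Of these 3 clusters, Dll1 was high in cluster 1 alone. It held 66.7 CPM (47 UMIs) there at E18.5 and 70.4 CPM (90 UMIs) at P3, against 2.94 and 2.44 CPM in cluster 2 and 8.60 and 1.88 CPM in cluster 3, so cluster 1 exceeded cluster 2 by 22.7 times (8.28 to 86.6) and 28.8 times (9.55 to 142). Lfng was also highest in cluster 1, with 42.6 CPM at E18.5 and 15.6 CPM at P3, and its ratio to cluster 2 was 2.75 (1.53 to 5.06) and 2.13 (0.929 to 5.32). The ligand, the fringe enzyme and Jag1 were thus highest together in the Lhx1-led cluster at both ages. The receptor Notch2 was less graded, with ratios of cluster 1 to cluster 3 of 1.53 (1.32 to 1.77) at E18.5, against 0.886 (0.793 to 0.988) at P3. Notch3 gave 1.13 (0.776 to 1.60) and 0.834 (0.564 to 1.22).

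The targets did not all follow the ligands. Hey1 in cluster 2 reached 25.8 CPM at E18.5 and 44.0 CPM at P3, while cluster 1 held 28.4 and 17.2 CPM and cluster 3 held 8.87 and 12.7 CPM. At P3 Hey1 was therefore lower in cluster 1 than in cluster 2, with a ratio of 0.391 (0.227 to 0.653), whereas at E18.5 the ratio was 1.10 (0.603 to 1.96). Heyl held 38.3, 29.4 and 18.0 CPM in clusters 1, 2 and 3 at E18.5 and 21.9, 35.8 and 9.38 CPM at P3. Cluster 1 exceeded cluster 3 by 2.13 times (1.31 to 3.37) and 2.33 times (1.27 to 4.37), and at P3 the highest level was in cluster 2, which was 3.82 times (2.20 to 6.84) that of cluster 3. Hes1 was nearly level at E18.5, with 54.0, 57.4 and 65.3 CPM in clusters 3, 2 and 1, and graded at P3, with 14.5, 37.5 and 50.1 CPM, where cluster 1 exceeded cluster 3 by 3.44 times (2.21 to 5.47).

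Counted at the 2-fold limit, 6 of 9 members with enough UMIs were higher in cluster 1 than in cluster 3 at each age, against 4.84% of all genes at E18.5 and 7.93% at P3, and 0 were lower, against 9.23% and 8.98%. For cluster 2 over cluster 3, 3 of 9 were higher at E18.5 (3.73% of all genes) and 5 of 7 at P3 (6.12%), and 1, Dll1 at E18.5, was lower (4.85% and 5.80%). For cluster 1 over cluster 2, 3 of 9 were higher at each age, namely Jag1, Dll1 and Lfng (3.48% and 4.26%), and 1, Hey1 at P3, was lower (5.59% and 3.85%). In each of these comparisons the share of members that were higher exceeded the share of all genes. The counts describe clusters chosen after their values were seen, and no test was made.

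**Figure D2:**
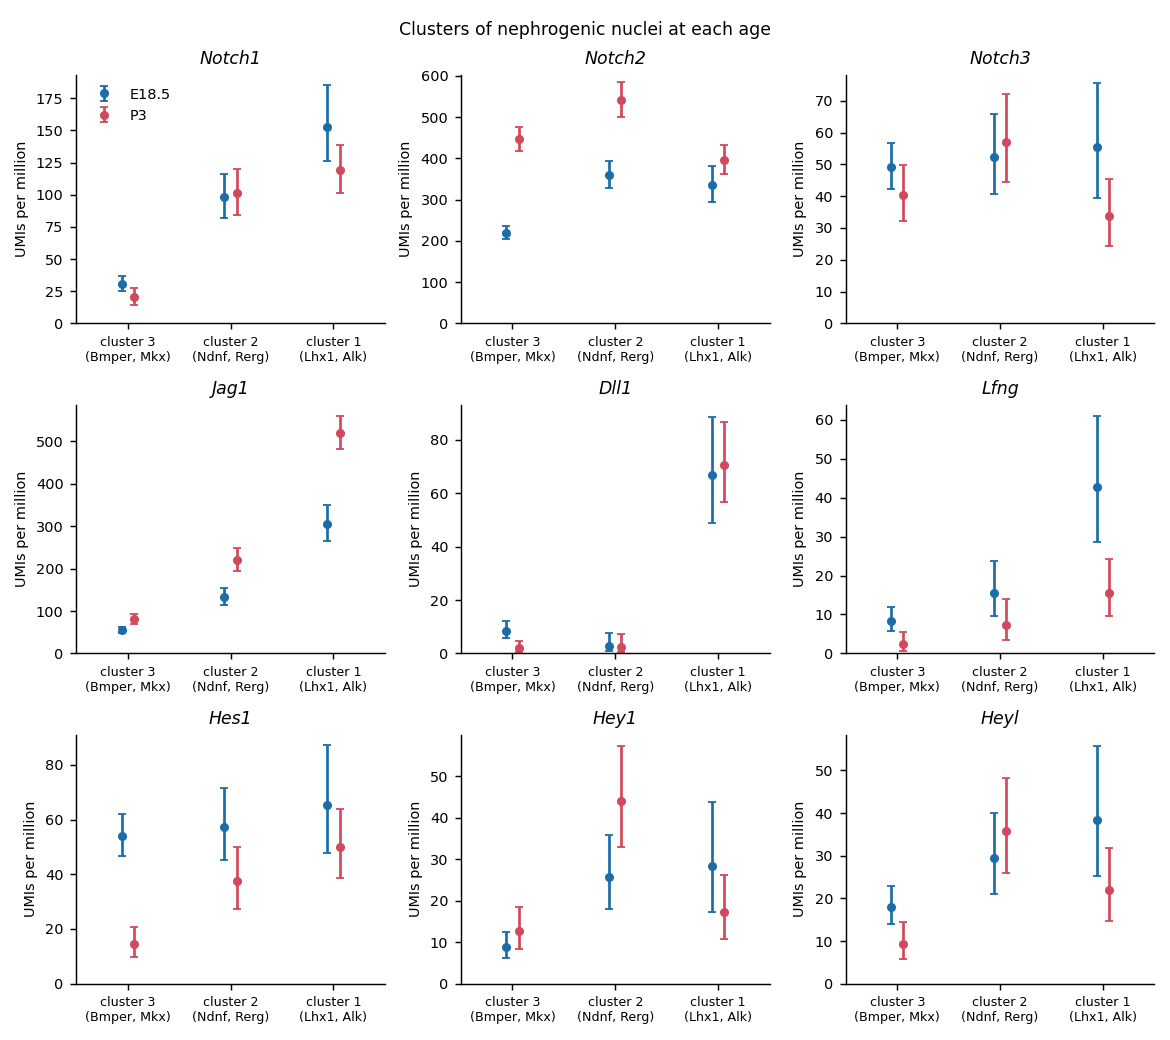
Level of 9 Notch genes in CPM (linear scale from 0) in clusters 3, 2 and 1 of the nephrogenic nuclei at E18.5 (blue) and P3 (red), with bars for exact 95% Poisson intervals and 2 leading genes under each cluster. Dll1 is at 66.7 and 70.4 CPM in cluster 1 and below 9 CPM in the others, Notch1 and Jag1 are higher in cluster 1 than in cluster 3, and Hey1 at P3 is highest in cluster 2. For Notch1 at P3, clusters 1 and 2 are not separated by counting error.

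Endothelium-like nuclei were clustered again to find arterial nuclei by markers outside the pathway, such as Gja5, Efnb2, Sox17 and Bmx. Arterial-like nuclei numbered 73 of 1098 at E18.5, in 2 clusters, and 51 of 796 at P3. The E18.5 cluster of 39 nuclei had Gja5 and Bmx raised and shared 5 leading genes with the P3 cluster. The other, of 34 nuclei, raised only Efnb2, Sox17 and Cxcl12 and shared 1 leading gene with it. Jag1 was the clearest arterial gene among the members, with 353 CPM (278 to 441, 76 UMIs) in arterial-like and 30.3 CPM in other endothelium-like nuclei at E18.5, a ratio of 11.6 (8.50 to 15.9). At P3 it held 486 CPM (394 to 592, 98 UMIs) against 23.1 CPM, a ratio of 21.0 (15.2 to 29.3). Both E18.5 arterial-like clusters were high, with 456 CPM (339 to 599) and 241 CPM (156 to 356). The low Jag1 level of the endothelium-like class as a whole, 51 and 54 CPM, thus came with a small arterial-like fraction in which Jag1 was high. Under Leiden clustering the Jag1 ratio at E18.5 was 3.69.

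Dll4 was 41.8 CPM from 9 UMIs in arterial-like against 20.7 CPM in other nuclei at E18.5, a ratio of 2.02 with an interval from 0.883 to 4.07. At P3 it was 64.4 CPM (34.3 to 110.1, 13 UMIs) against 11.4 CPM, a ratio of 5.67 (2.73 to 11.1). The E18.5 cluster with Gja5 and Bmx raised alone held 53.6 CPM Dll4 (19.7 to 117, 6 UMIs). The ratio of the P3 cluster to it was 1.20 (0.426 to 3.85). Dll4 was not arterial alone, since an unnamed endothelial cluster led by Prdm1, St8sia4 and Prnd held 36.0 CPM (25.5 to 49.4, 336 nuclei) at E18.5, and its counterpart at P3, with 4 shared leading genes, held 48.7 CPM (26.6 to 81.7, 84 nuclei). Dll1 was found in yet other nuclei, with 120.1 CPM (44.1 to 261, 6 UMIs) in 16 nuclei led by Kirrel3 and Nrg1 at E18.5 and 80.5 CPM (34.7 to 159, 8 UMIs) in the 27 nuclei of the matching cluster at P3, and Dll4 was at 0 UMIs in both. The upper limits of Dll4 there were 73.8 CPM at E18.5 and 37.1 CPM at P3, and the first is above the arterial-like level. The measured levels of these ligands were highest in different endothelial clusters, but at E18.5 the counts do not resolve this for Dll4.

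Hey1 was 41.8 CPM from 9 UMIs in arterial-like against 7.97 CPM in other endothelium-like nuclei at E18.5, a ratio of 5.24 (2.15 to 11.6), and 34.7 CPM against 3.19 CPM at P3, where 16 UMIs in all were below the minimum of 20. Notch1 was 1.63 times (1.16 to 2.22) as high in arterial-like nuclei at E18.5 and 0.921 times (0.588 to 1.38) at P3. The E18.5 cluster with Gja5 and Bmx raised held 241 CPM Notch1 and the P3 cluster 124 CPM, a ratio of 0.513 (0.286 to 0.919). Hes1 was not separated, with ratios of 0.635 (0.324 to 1.13) and 0.720 (0.340 to 1.35), and with 20 neighbors in the graph the P3 value was 0.270. Outside the members, Notch4 was 2.46 times (1.65 to 3.58) and 2.33 times (1.51 to 3.46) and Jag2 17.1 times (10.6 to 27.6) and 16.1 times (9.82 to 26.4) as high in arterial-like nuclei. In all, 3 of 9 members were at least 2-fold higher at E18.5 (Jag1, Dll4 and Hey1) against 6.66% of all genes, and 2 of 7 at P3 (Jag1 and Dll4) against 7.84%. At least 2-fold lower was 1 member at E18.5, Lfng with 1 UMI, against 17.0% of genes, and 0 members at P3 against 20%. The podocyte marker list summed to 1281 CPM in arterial-like and 716 CPM in other endothelium-like nuclei at E18.5 and to 971 and 684 CPM at P3, with 9 and 8 of 9 markers detected in arterial-like nuclei and Nphs1 at 0 at P3. The mural list summed to 218 and 282 CPM at E18.5 and to 228 and 192 CPM at P3, and the leukocyte list to 37.1 and 56.4 CPM and to 24.8 and 48.3 CPM, with 5 of 8 markers at 0 in arterial-like nuclei at E18.5 and 4 at P3. The part of other cell types in these ratios was not tested.

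Stromal nuclei, the interstitium-like and mural-like classes together, were clustered again in the same way. Mural-like clusters, taken as those with at least 3 mural markers raised and a mean log2 score of at least 1 by a rule set after the clusters were seen, held 198 nuclei beside 4836 others at E18.5 and 97 beside 3094 others at P3. Notch3 was 553 CPM (496 to 615) in them against 93.1 CPM in other stromal nuclei at E18.5, a ratio of 5.94 (5.27 to 6.69), and 634 CPM (557 to 718) against 94.9 CPM at P3, a ratio of 6.68 (5.81 to 7.65). Heyl was 134 CPM (107 to 166) against 13.4 CPM at E18.5, a ratio of 9.99 (7.66 to 12.9), and 108 CPM (77.7 to 146) against 17.1 CPM at P3, a ratio of 6.31 (4.44 to 8.77). Jag1 was 5.25 times (4.23 to 6.47) and 7.24 times (5.72 to 9.09) as high, and Notch1 2.23 times (1.70 to 2.88) and 2.73 times (1.89 to 3.83). In sums over the mural-like clusters a receptor, a ligand and a target were thus high at both ages, and the single clusters differed.

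Hes1 was 1.43 times (1.04 to 1.93) as high at E18.5 and 1.64 times (0.907 to 2.74) at P3, and Notch2 was not separated at either age, with 1.18 (0.942 to 1.46) and 0.965 (0.738 to 1.24). Under 20 neighbors and under Leiden clustering the Hes1 ratio at P3 was 3.17 and 3.08, and the Heyl ratio under 20 neighbors was 4.06. Of the other pathway genes, Hey2 was 12 times (8.30 to 17.2) and 17.5 times (9.22 to 31.8) as high in mural-like nuclei, and Nrarp 3.61 times (1.80 to 6.65) at E18.5. At least 2-fold higher were 4 of 10 members at each age, namely Notch1, Notch3, Jag1 and Heyl, against 6.84% of all genes at E18.5 and 8.63% at P3. At E18.5, 0 members were at least 2-fold lower, against 13.9% of genes. At P3 Dll1, Dll4 and Lfng had 0 UMIs in mural-like nuclei, which allows up to 7.70 CPM and so more than their 3.17, 1.35 and 4.05 CPM in other stromal nuclei, and 18.4% of genes were at least 2-fold lower. Markers of endothelium summed to 492 CPM in mural-like and 271 CPM in other stromal nuclei at E18.5 and to 462 and 291 CPM at P3, with 8 of 8 detected. The leukocyte list summed to 62.9 and 46.6 CPM at E18.5 and to 43.6 and 51.2 CPM at P3, and the podocyte list to 724 and 798 CPM and to 662 and 656 CPM. The part of RNA of these cell types in the mural-like values was not tested. Dll4, the endothelial ligand, was at 3.23 CPM from 2 UMIs at E18.5 and at 0 UMIs at P3 in these nuclei.

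The mural-like nuclei were not uniform. At E18.5 the larger cluster, with Abcc9 and Kcnj8 among its raised markers (180 nuclei), held 542 CPM Notch3 (482 to 606), 147 CPM Jag1 (117 to 183) and 135 CPM Heyl (106 to 169). The smaller cluster, with Ren1, Acta2 and Myh11 raised (18 nuclei), held 657 CPM Notch3 (472 to 892), 417 CPM Jag1 (272 to 611) and 128 CPM Heyl (55.4 to 253). Ren1 encodes renin. At P3 the cluster led by Ren1 (33 nuclei) held 1139 CPM Notch3 (961 to 1341), 487 CPM Jag1 (374 to 625) and 102 CPM Heyl (54.4 to 175), and the cluster with Abcc9 and Kcnj8 raised (40 nuclei) held 597 CPM Notch3 (485 to 728), 146 CPM Jag1 (93.7 to 218) and 177 CPM Heyl (118 to 254). Jag1 was thus higher in the cluster with Ren1 among its leading genes at both ages, with intervals that did not overlap, while the intervals of Heyl overlapped. Ren1 was raised in all 4 of these clusters. A further cluster at P3, led by the visceral smooth muscle genes Actg2 and Myh11 (24 nuclei), held 40.6 CPM Notch3 and 40.6 CPM Jag1 from 4 UMIs each and 0 UMIs of Heyl, with upper limits of 104 CPM for Notch3 and 37.5 CPM for Heyl. This cluster raised Myh11, Acta2, Tagln and Abcc9, so nuclei with raised smooth muscle markers differed in Notch3 and Heyl. The lowest scores inside the limit were 1.09 at E18.5, that of the 180 nuclei, and 1.02 at P3, that of the 24 nuclei. The highest outside it at E18.5 was 0.64, in 72 nuclei with Cspg4, Abcc9 and Kcnj8 raised, which held 131 CPM Notch3, 80.4 CPM Jag1 and 62.1 CPM Heyl. At P3 it was 0.07, in 171 nuclei with Myh11 and Tagln raised, which held 92.6, 35.2 and 6.86 CPM. A P3 cluster of 19 nuclei led by Dkk2 and Serpini1, with a score of 0.04 and 2 mural markers raised, held 218, 51.3 and 64.2 CPM and was chosen after its values were seen.

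In the rest of the stroma, Heyl was not evenly spread. The cluster with Megf11 and Kcnk2 among its leading genes held 22.6 CPM Heyl in 1441 nuclei at E18.5 and 47.2 CPM in 639 nuclei at P3, a ratio of 2.08 (1.57 to 2.77). Its Notch3 level was nearly the same at both ages, with 137 and 146 CPM and a ratio of 1.06 (0.928 to 1.22). Heyl had the other direction between the 72 nuclei with a score of 0.64 and the P3 cluster matched to them by 3 leading genes (36 nuclei), with 62.1 CPM from 17 UMIs and 16.0 CPM from 4 UMIs, a ratio of 0.257 (0.0630 to 0.789). The shared genes were Ranbp3l, Gm31243 and Agmo, and the match is loose. The P3 cluster raised no mural marker, had a score of -0.58 and 11.1% called doublets, and had Col4a3 and Col4a4 among its leading genes. The part of this unlike makeup in the ratio was not tested.

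**Figure D3:**
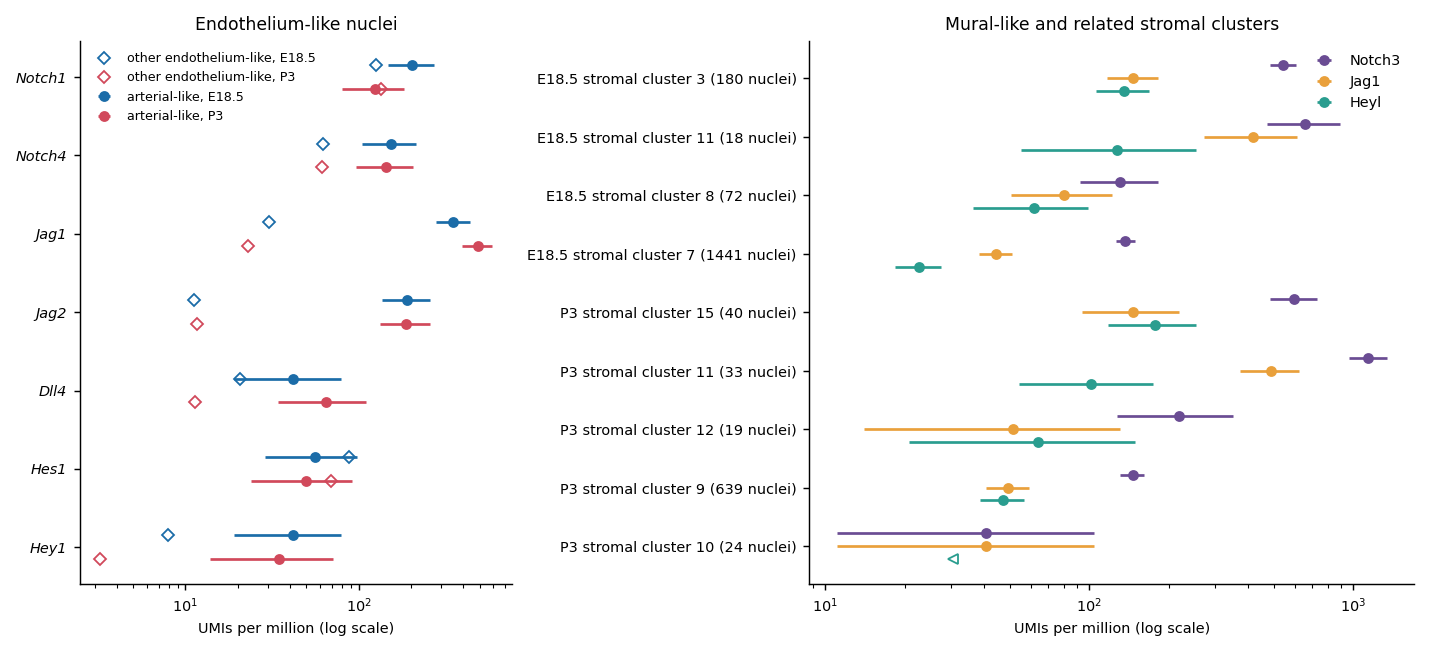
Left, levels in CPM (log scale) in arterial-like (filled) and other endothelium-like nuclei (open) at E18.5 (blue) and P3 (red), and right, levels of Notch3, Jag1 and Heyl in single stromal clusters (log scale), with bars for exact 95% Poisson intervals and an open triangle at the level of 3 UMIs where a cluster had 0. Jag1 and Jag2 are 11.6 to 21.0 times as high in arterial-like nuclei, and Notch3 is above 500 CPM in the 4 clusters with Ren1 raised and below 250 CPM in the others shown.

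The ages were compared within classes of the same name. Of 130 pairs of a member and a class, 93 had enough UMIs, and 23 of these were past 2-fold, 3 higher and 20 lower at P3. These are 3.23% and 21.5% of the pairs, against 5.59% and 13.4% of all pairs of a gene and a class with enough UMIs. Most of the lower pairs belonged to Hes1, Lfng, Hey1 and Dll1, with 6, 5, 3 and 2 pairs, which are the members under 10 kb. Over whole libraries, 22.6% of all genes under 10 kb were at least 2-fold lower at P3, against 11.3% of genes of any length. Of the 20 lower pairs, 17 had an interval below 1 and 3 had an interval that holds 1, namely Lfng in distal precursor-like nuclei with 0.381 (0.0737 to 1.25) and Hey1 in distal precursor-like nuclei with 0.481 (0.147 to 1.24) and in proximal tubule-like nuclei with 0.384 (0.145 to 1.08). All 3 higher pairs concerned Notch2 or the mural-like class. Notch2 in nephron progenitor-like nuclei was 2.06 times (1.92 to 2.21) as high at P3, and its ratio was above 1 in 12 of 13 classes, with an interval above 1 in 6. Among the 6 was the podocyte-like class, which at P3 joined 2 clusters. The cluster with Magi2 and Thsd7a among its leading genes, as at E18.5, held 158 CPM, against 157 CPM at E18.5. The other, with Ndnf and Sgip1 among its leading genes and 12.2% called doublets, held 345 CPM. The part of this makeup in the ratio was not tested. In mural-like nuclei Notch3 was 2.26 times (1.85 to 2.75) and Jag1 3.19 times (2.30 to 4.40) as high at P3. The E18.5 mural-like class had Abcc9 among its leading genes, however, and the 32 nuclei of the P3 class were led by Ren1. The stromal clusters with Ren1 among their leading genes (18 and 33 nuclei) shared 6 leading genes. Between them the ratios were 1.73 (1.22 to 2.51) for Notch3 and 1.17 (0.728 to 1.92) for Jag1. The clusters with Abcc9 and Kcnj8 raised (180 and 40 nuclei) shared 5, as many as the E18.5 one shared with the P3 cluster led by Ren1. They held 542 and 597 CPM Notch3 and 147 and 146 CPM Jag1. Summed over all mural-like stromal clusters, Notch3 held 553 and 634 CPM and Jag1 174 and 231 CPM. The part of this makeup in the class ratios was not tested. Under Leiden clustering the ratios of the whole mural-like class were 1.45 and 1.56.

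Hes1 was past 2-fold lower at P3 in 6 of 13 classes and had an interval below 1 in 10. In nephron progenitor-like nuclei it had 63.5 and 14.2 CPM, a ratio of 0.223 (0.158 to 0.307), in urothelium-like nuclei 183 and 50.4 CPM, a ratio of 0.276 (0.174 to 0.430), and in interstitium-like nuclei 52.0 and 23.5 CPM, a ratio of 0.452 (0.397 to 0.512). It was nearly level in loop of Henle-like nuclei, with 74.0 and 72.3 CPM and a ratio of 0.976 (0.710 to 1.35), and was 0.789 times (0.656 to 0.948) as high in endothelium-like nuclei. Among the 6 classes was the proximal tubule-like class, with 32.5 and 15.6 CPM, which at P3 joined 2 clusters of unlike Hes1 level. The cluster led by Slc5a12 and Slc34a1 (1024 nuclei) held 9.65 CPM. The other (255 nuclei) held 38.4 CPM and had Aadat, Slc7a12 and Slco1a6 among its leading genes, as the E18.5 cluster did. The part of this makeup in the ratio was not tested. Lfng was past 2-fold lower in 5 of 7 classes and Dll4 in 2 of 3, both a larger share of the classes with enough UMIs than for Hes1, and Hey1 was in 3 of 6, Dll1 in 2 of 8 and Notch1 in 2 of 12. The ratio was below 1 in 7 of 7 classes for Lfng, 3 of 3 for Dll4 and 12 of 13 for Hes1. Heyl was past 2-fold in 0 of 7 classes, and Notch3 and Jag1 were lower past 2-fold in 0 of 11 and 0 of 13.

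By class, the counts past 2-fold stood as follows against all genes with enough UMIs. In nephron progenitor-like nuclei 5 of 10 members were lower (Notch1, Dll1, Dll4, Lfng and Hes1) and 1 was higher, against 13.5% and 4.81% of genes. In interstitium-like nuclei 4 of 10 were lower (Dll1, Dll4, Hes1 and Hey1) and 0 higher, against 13.9% and 4.06%, and in proximal tubule-like nuclei 3 of 9 (Lfng, Hes1 and Hey1) and 0, against 12% and 9.33%. In mural-like nuclei 2 of 6 were higher and 0 lower, against 7.17% and 25.8%, and in distal precursor-like nuclei 2 of 9 were lower (Lfng and Hey1) and 0 higher, against 15.5% and 3.37%. A single member was lower, and 0 higher, in podocyte-like nuclei (Hes1, against 13.1% and 4.04%), loop of Henle-like nuclei (Notch1, 11.7% and 4.62%), ureteric epithelium-like nuclei (Lfng, 13.4% and 3.92%), urothelium-like nuclei (Hes1, 9.25% and 6.20%), endothelium-like nuclei (Lfng, 13.1% and 3.34%) and leukocyte-like nuclei (Hes1, 11.8% and 7.67%). In distal tubule-like and intercalated cell-like nuclei 0 members passed in either direction, against 11.7% lower in both and 10.4% and 7.89% higher. The members with enough UMIs differed between these classes. In endothelium-like nuclei all members had enough, and in leukocyte-like nuclei only Notch1, Notch2, Jag1 and Hes1. A single member is therefore a coarse share, and nearness to the background cannot be read from it. That background was taken over genes of all lengths. The shares of members lower in the nephron progenitor-like, interstitium-like and proximal tubule-like classes stood furthest above it. The nephron progenitor-like calls depended on the graph setting, as given below. For Hes1 the proximal tubule-like ratio was taken over 2 P3 clusters of unlike level. In mural-like nuclei the share of members past 2-fold in either direction was close to that of all genes, with both such members higher and most of such genes lower. Both of these members were compared between mural-like classes of unlike makeup.

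The nephron progenitor-like class of E18.5 also held clusters 1 and 2 and the nuclei with Crym raised that had no matched cluster at P3. At P3 a committing-like class was named beside it. The ages were therefore compared within clusters of the same number as well. Within cluster 1, Dll1 was not separated between the ages, with a ratio of 1.06 (0.734 to 1.54), Jag1 was 1.70 times (1.46 to 1.99) as high at P3, Lfng was 0.367 times (0.198 to 0.669) and Hes1 0.767 times (0.517 to 1.15) as high. Within cluster 3, the counterpart with Bmper and Mkx, Hes1 was 0.269 times (0.178 to 0.394), Dll1 0.218 times (0.0561 to 0.615), Lfng 0.282 times (0.0855 to 0.730) and Notch2 2.03 times (1.85 to 2.24) as high at P3. Notch1 was 0.664 times (0.456 to 0.952) as high, and Dll4, with 13 and 1 UMIs, 0.134 times (0.00316 to 0.894). Of the 6 members past 2-fold in the class, Notch2, Dll1, Lfng and Hes1 were thus past 2-fold in the same direction in cluster 3, Notch1 was not, and Dll4 had fewer UMIs than the minimum. Cluster 3 was taken from the same nephrogenic nuclei, so this is not a separate check. At P3 it held 5 UMIs of Lfng and 4 of Dll1, against 5 of each in the class. The share of all genes past 2-fold within cluster 3 is not given here. The part of class composition in the class ratios was not tested further. Among dividing nephrogenic nuclei, matched by 3 leading genes, Hes1 was 73.8 CPM at E18.5 and 6.31 CPM from 3 UMIs at P3. With 20 neighbors in the graph the class ratios of nephron progenitor-like nuclei moved to 1.81 for Notch1, 4.23 for Jag1, 0.885 for Dll1, 0.734 for Lfng, 2.57 for Notch2 and 0.388 for Hes1. Of the 6 members past 2-fold in the class, Notch1 alone changed its direction under this setting, and Dll1 and Lfng were no longer past 2-fold. Notch2 and Hes1 stayed past 2-fold in the same direction, and the Dll4 ratio is not given here.

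Over whole libraries, Dll4 had 4.20 CPM at E18.5 and 1.60 CPM at P3, a ratio of 0.380 (0.304 to 0.473), and Lfng had 12 and 4.37 CPM, a ratio of 0.363 (0.318 to 0.414). Hes1 had 63.9 and 33.7 CPM, a ratio of 0.528 (0.503 to 0.555). Notch2 and Jag1 were higher at P3, with ratios of 1.23 (1.20 to 1.26) and 1.18 (1.14 to 1.23), and the other members lay between 0.616 for Hey1 and 0.903 for Notch3. Past 2-fold were 2 of 10 members, both lower, against 11.3% of all genes lower and 6.36% higher. Sums over whole libraries also move with the share of each class and include the unnamed nuclei. Nephron progenitor-like nuclei were 13.9% of nuclei at E18.5 and 4.72% at P3. The Dll4 ratio was 0.675 (0.456 to 0.991) in endothelium-like nuclei, its highest class. It was 0.431 in interstitium-like and 0.132, from 27 and 1 UMIs, in nephron progenitor-like nuclei. The part of class makeup in the whole-library ratios was not tested.

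Gene length moved with the difference between the ages across all genes. The median ratio of P3 to E18.5 was 0.724 for the 4829 genes under 10 kb, which include Dll1, Lfng, Hes1 and Hey1, and 0.896 for those of 10 to 50 kb, which include Notch3, Jag1, Dll4 and Heyl. It was 1.05 for genes of 50 to 100 kb, with Notch1, and 1.18 for the 2522 genes over 100 kb, with Notch2. Within classes the median ranged from 0.428 to 0.739 for genes under 10 kb and from 1.14 to 1.37 for those over 100 kb. At least 2-fold lower were 22.6%, 7.93%, 3.38% and 3.36% of genes in these length groups from short to long, and at least 2-fold higher 5.71%, 6.34%, 7.31% and 6.98%. The 4 members under 10 kb had ratios from 0.363 to 0.651, below the median of their group. Hes1 at 0.528, Hey1 at 0.616 and Dll1 at 0.651 lay within the quartiles of that group, 0.522 and 0.971, and Lfng at 0.363 lay below them. Notch2 at 1.23 was near the median of its own group. Notch1 at 0.789 was below its group, and Jag1 at 1.18 was above its group, whereas Dll4 at 0.380 was below the same group. In nephron progenitor-like nuclei the medians were 0.679 under 10 kb and 1.24 over 100 kb, against 0.223 for Hes1 and 2.06 for Notch2. The header of the matrix names a different Cell Ranger release at each age, and the part of length and of counting in the age differences was not tested.

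**Figure D4:**
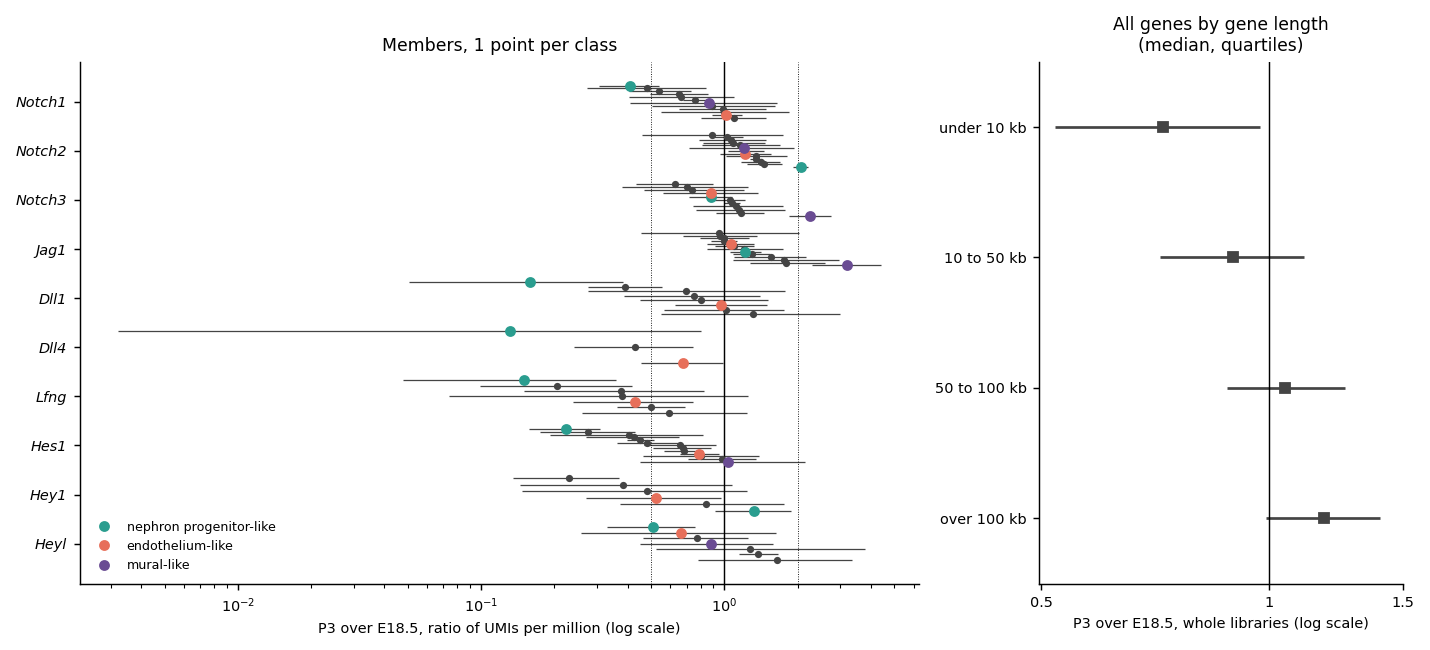
Left, ratio of P3 to E18.5 in CPM (log scale) for each member, 1 point for each class with enough UMIs and exact 95% intervals, with dotted lines at 2-fold in either direction, and right, the median and quartiles of the same ratio over whole libraries for all genes by gene length (log scale). Hes1 and Lfng lie mostly to the left of 1 and Notch2 to the right, and the medians of all genes run from 0.724 under 10 kb to 1.18 over 100 kb.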

How the data were processed

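Single-nucleus RNA sequencing of whole mouse kidney was analysed from 1 E18.5 library and 1 P3 library. Per the labels and the methods of the study, the kidneys of male and female mice were pooled, nuclei were released by douncing and filtered, and 3′ libraries were made on the 10x Chromium system. The authors aligned the reads to mm10 and made the deposited counts with Cell Ranger, release 5.0.1 by the submitters' processing notes, as numbers of distinct UMIs for a gene under a barcode, although the header of the E18.5 matrix names a later release than that of the P3 matrix. Barcodes had been called against empty droplets. Whether intronic reads were counted is not given in the sources used here.

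From 21600 and 12216 barcodes, nuclei were removed when log UMIs or log genes lay more than 3 median absolute deviations low (112 and 0 nuclei) or the mitochondrial share lay more than 3 deviations high with a difference of at least 0.5% (220 and 451). The kept nuclei held 77321253 and 70055219 UMIs. Counts were normalized by deconvolution (scran 1.30.0, R 4.3.3), and each library was clustered on its own by Walktrap (igraph 2.1.4, bluster 1.12.0) with 10 neighbors, 50 components and 2000 variable genes, without the members and the 47 other pathway genes. Nuclei called doublets by scrublet (scanpy 1.11.5) were kept. A cluster was named when at least 3 markers of 1 list were raised 2-fold with at least 10 UMIs, no other list led among its 10 leading genes or scored within 0.8 of it, and at most 50% of its nuclei were called doublets. The interstitium and mural lists were not held against each other, and a cluster with 3 raised markers over both was named interstitium unless a mural marker was among its leading genes, which named 1 cluster at each age with 2 interstitium markers raised. The details of this rule, the score limit for mural-like clusters, the pairs of clusters matched by at least 3 shared leading genes, the length groups and the comparisons of numbered clusters were chosen after the clusters were seen. Members and gene lists were chosen with earlier results of these data known.

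UMIs were summed per class. Levels have exact Poisson intervals, ratios exact conditional binomial intervals and shares exact binomial (Clopper-Pearson) intervals, at 95% (scipy 1.17.1), and were tested on simulated data. With 1 library per age no test was possible. Comparisons needed 20 UMIs in both groups together and a call needed 2-fold, and a count of 0 was read as allowing 3 UMIs, or 3 nuclei for shares. The upper limits given for 0 UMIs in single endothelial and stromal clusters are exact Poisson limits instead, which are somewhat higher. Named were all members, the pathway genes with a leading class with Notch4, Jag2, Rbpj, Nrarp, Hes5 and Hey2, and for each member the 3 genes with the closest pattern of log2(CPM + 10) among those with at least 20 CPM in 1 class. The values of 1 pathway gene with a leading class are not reported here. Gene coordinates came from the GENCODE annotation of GRCm38, which held 99.61% of the gene identifiers, and lengths were compared for genes with at least 100 UMIs. The alternatives were another graph (20 neighbors or Leiden communities), linear quality limits, size factors, removal of doublets, a limit of 1.5-fold, no minimum of UMIs and thinning to 2000 UMIs.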

Additional observations from a re-analysis of the deposited data

Results flagged for a closer look

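At P3, Dll1 reached 70.4 CPM (89 UMIs) and Lfng 21.4 CPM (27 UMIs) in a cluster of 236 nuclei that carried no class name. Both values lay above those of every named P3 class, the highest being 39.3 CPM for Dll1 in committing-like and 14.2 CPM for Lfng in leukocyte-like nuclei. These 236 nuclei entered the sums over whole libraries but none of the comparisons by class. The cluster was led by Stxbp5l, Grid1 and Galntl6, with Cdh6 and Lama1 among its 10 leading genes, and 5.51% of its nuclei were called doublets. Its best list was that of proximal precursors, of which 2 of 5 markers were raised (Cdh6 and Osr2), under the minimum of 3. Jag1 was 299 CPM, Notch2 217 CPM and Notch1 101 CPM in the same nuclei. At E18.5 the proximal precursor-like class, with Stxbp5l, Grid1, Galntl6 and Cdh6 among its leading genes as well, held 44.5 CPM Dll1 and 26.2 CPM Lfng.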

How the results depend on the processing

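No paired analysis was possible because each age has a single library. Of 20 cases of a member and an age, the highest class kept its name in 13 under Leiden clustering and in 11 with 20 neighbors, and in 17 to 20 with linear quality limits, size factors or without doublets. Members with a leading class at E18.5 numbered 3, and 1 with 20 neighbors, 1 with linear quality limits and 5 at a limit of 1.5-fold. Pairs past 2-fold between the ages numbered 23, and 37 at 1.5-fold and 44 with no minimum of UMIs. Over whole libraries, members past the limit numbered 2, and 5 at 1.5-fold. The remaining counts stayed within 1.5 times the reported count. Of 763 single values under other settings, 723 stayed within the counting interval, 39 moved out of it and 1 changed direction, which was Notch1 in nephron progenitor-like nuclei between the ages with 20 neighbors, at 1.81 in place of 0.409. With 20 neighbors 20 of 118 values moved, under Leiden clustering 14 of 119, with linear quality limits 5 of 127, and with size factors or without doublets 0 of 133 each. Leaving the 2 clusters named from both stromal lists unnamed, an alternative chosen after the data were seen, moved 0 of 133 values out of the counting interval, and 24 pairs passed 2-fold between the ages in place of 23. The cause was not tested. A single library per age, the 32 mural-like and 51 arterial-like nuclei at P3, and few UMIs of Dll4, Hey1 and Lfng limit the precision.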
